A study of Mus musculus with 371 samples.

Results

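Foxp3 and 4 genes of the Ikaros family (Ikzf1, Ikzf2, Ikzf3 and Ikzf4), 5 of the 23362 genes in the table, were followed through single T cells. The cells were sorted from tumours that C57BL/6 mice grew from B16F10, a melanoma cell line. They were chosen by name, and each is described in CD4 and CD8 cells of Il27ra knockout (KO) and wild-type (WT) mice, and in CD4 cells with and without Foxp3. The series' design names its question as the genes that IL-27 induces in T cells of the tumour. After cells with fewer than 1000 genes at 1 FPKM were left out, 89 of 93 KO CD4, 85 of 94 WT CD4, 86 of 90 KO CD8 and 90 of 94 WT CD8 cells remained. Each group carries 1 animal name in its titles and is treated as 1 pool without replicate. A difference between pools and one between genotypes therefore cannot be told apart, and no test between groups was made. The titles also give the number 3 after the genotype in every group, p2 in both CD4 groups and p1 in both CD8 groups. A difference between CD4 and CD8 cells thus cannot be told apart from one between pools or between p1 and p2. The labels' treatment text speaks of CD8 cells only, while the titles name CD4 cells as well. Age, sex, the number of pooled mice and the time after tumour injection are not given in the sources used here.

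Il27ra, the targeted gene, was found in 50.6% of CD4 cells labelled KO and 50.6% of WT CD4 cells, and in 53.5% of CD8 cells labelled KO and 51.1% of WT CD8 cells. A single value per gene leaves unseen whether reads came from a deleted part, so the genotype labels were not checked, and KO below means cells labelled KO. Lineage transcripts matched the sort in 61 of 89 KO CD4, 54 of 85 WT CD4, 84 of 86 KO CD8 and 83 of 90 WT CD8 cells. A match meant Cd4 without Cd8a or Cd8b1 in CD4 cells, and Cd8a or Cd8b1 without Cd4 in CD8 cells, at 1 FPKM. In the CD4 sort Cd4 was found in 78 KO and 74 WT cells. Cd8b1 was found there in 19 KO and 21 WT cells, at medians of 2.95 and 2.13 FPKM. In positive cells of the CD8 sort its medians were 903 and 1068 FPKM. Between 14 and 28 cells per group had at least 2 markers of some other cell type, most often of melanoma cells. The median number of genes per cell was 1868 in KO CD4, 1661 in WT CD4, 1955 in KO CD8 and 2148 in WT CD8 cells. From the spacing of low values, the median library held roughly 456419 to 524288 counted fragments. With 1 transcript taken per gene, 1 read would then be worth 0.406 to 0.990 FPKM for these genes. This estimate is rough. The spacing took in 27.2% to 28.7% of low values, against 13.9% to 14.6% with gene lengths shuffled. Ikzf2 stood at 0.12 FPKM in a KO CD8 cell, which is below the estimate. A value at the detection limit of 1 FPKM may thus stem from few reads, and a missing value does not show that a cell lacks the transcript.

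Foxp3 is the transcription factor that defines regulatory T cells, which restrain other T cells and gather in tumours. Ikaros (Ikzf1), Helios (Ikzf2), Aiolos (Ikzf3) and Eos (Ikzf4) are zinc finger proteins that bind DNA through an N-terminal group of fingers, pair with each other through a C-terminal group, and recruit chromatin complexes such as NuRD. Ikaros is made throughout the lymphoid lineages, Aiolos in many lymphocytes, and Helios and Eos are known from regulatory T cells, where Eos is a partner of Foxp3 in gene repression. Foxp3 lies at chrX:7573644-7595245 (plus strand, GRCm38, the assembly also called mm10), Ikzf1 at chr11:11685003-11772926 (plus), Ikzf2 at chr1:69531214-69687245 (minus), Ikzf3 at chr11:98464902-98546031 (minus) and Ikzf4 at chr10:128630843-128645991 (minus).

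The 4 Ikaros genes are close relatives, so a stretch where their proteins are identical is shown: the coding bases of the second zinc finger that matches the C2H2 pattern, read from GENCODE M21 transcripts. Capitals mark bases that differ from Ikzf1.
Ikzf1, exon 6, chr11:11754024-11754086: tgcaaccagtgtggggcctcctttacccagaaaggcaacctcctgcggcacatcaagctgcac
Ikzf2, exon 5, chr1:69570581-69570643: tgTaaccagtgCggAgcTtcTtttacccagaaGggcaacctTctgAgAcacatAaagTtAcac
Ikzf3, exon 5, chr11:98488940-98489002: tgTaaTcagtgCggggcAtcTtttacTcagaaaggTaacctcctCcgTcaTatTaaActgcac
Ikzf4, exon 5, chr10:128640229-128640291: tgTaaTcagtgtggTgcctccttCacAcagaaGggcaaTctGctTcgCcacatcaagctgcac
All 4 stretches encode the same 21 residues, but 12 of the 63 bases differ from Ikzf1 in Ikzf2, 12 in Ikzf3 and 10 in Ikzf4. Over the whole transcripts, the longest run of bases shared by any pair of the 4 was 17 to 26, the longest of these between Ikzf1 and Ikzf3. How the authors' counting treated a read that fits 2 of these genes is not given in the sources used here.

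Foxp3 marked the CD4 sort. It reached 1 FPKM in 35 of 89 KO CD4 cells (39.3%, exact 95% interval 29.1% to 50.3%) and 46 of 85 WT CD4 cells (54.1%, 42.96% to 64.98%). In the CD8 sort it was found in 4 of 86 KO cells (4.65%, 1.28% to 11.5%) and 0 of 90 WT cells, which allows a share of up to 3.33%. These intervals cover counting error only. Where found, its lowest, median and highest values were 16.3, 649 and 2001 FPKM in KO CD4 cells, and 9.65, 502 and 1472 FPKM in WT CD4 cells. Only 1 CD4 cell lay between 0 and 1 FPKM, at 0.670 FPKM in the KO pool, so the limit of 1 FPKM separated cells with ample Foxp3 from cells with almost none.

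The mean of log2(FPKM + 1) for Foxp3 over all cells was 3.54 ± 4.49 (SD over 89 cells) in KO CD4 and 4.61 ± 4.42 in WT CD4 cells, against 0.36 ± 1.69 in KO CD8 and 0 in WT CD8 cells. The SD is large because cells fell into a group at 0 and a group near 9 on this scale. The 2 CD4 pools overlap in their intervals, and both lie above the 2 CD8 pools without overlap.

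Helios (Ikzf2) was likewise found in more CD4 than CD8 cells, at lower levels than Foxp3 where found. It was found in 33.7% of KO CD4 cells (24.03% to 44.5%), 49.4% of WT CD4 cells (38.4% to 60.5%), 15.1% of KO CD8 cells (8.30% to 24.5%) and 18.9% of WT CD8 cells (11.4% to 28.5%). Where found, its lowest, median and highest values were 1.23, 38.2 and 214.2 FPKM in KO CD4, 1.03, 69.1 and 263.15 FPKM in WT CD4, 1.75, 29.6 and 93.97 FPKM in KO CD8, and 1.31, 23.9 and 77.3 FPKM in WT CD8 cells. The interval of the WT CD4 pool lies above that of the WT CD8 pool, while those of the 2 KO pools meet at their ends.

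Eos (Ikzf4) was the rarest of the 4 Ikaros transcripts in every group. It was found in 14.6% of KO CD4 cells (8.01% to 23.7%), 20% of WT CD4 cells (12.1% to 30.1%), 2.33% of KO CD8 cells (2 of 86) and 5.56% of WT CD8 cells (5 of 90). In cells that had it, the median was 70.5 FPKM in KO CD4 and 99.3 FPKM in WT CD4 cells, against 13.1 FPKM in KO CD8 and 55.3 FPKM in WT CD8 cells. A low share with a level near that of Helios describes a transcript seen in few cells but, in most of those, well above the limit of 1 FPKM.

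Ikaros (Ikzf1) ran the other way, with more CD8 than CD4 cells positive. It was found in 47.2% of KO CD4 (36.5% to 58.1%), 48.2% of WT CD4 (37.3% to 59.3%), 61.6% of KO CD8 (50.5% to 71.9%) and 63.3% of WT CD8 cells (52.5% to 73.2%). Where found, the median was 59.6 FPKM in KO CD4, 71.96 FPKM in WT CD4, 99.9 FPKM in KO CD8 and 77.4 FPKM in WT CD8 cells. All 4 intervals overlap, and neighbours in the order differ by far less than the SD over cells, which was 2.98 to 3.198 (log2).

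Aiolos (Ikzf3) showed no order by sort. It was found in 55.1% of KO CD4 (44.1% to 65.6%), 35.3% of WT CD4 (25.2% to 46.4%), 48.8% of KO CD8 (37.9% to 59.9%) and 46.7% of WT CD8 cells (36.1% to 57.5%). Where found, the median was 97.5 FPKM in KO CD4, 68.9 FPKM in WT CD4, 58.6 FPKM in KO CD8 and 87.2 FPKM in WT CD8 cells. The highest single value of any Ikaros gene, 913 FPKM, was Aiolos in a KO CD4 cell without Foxp3.

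**Figure D1:**
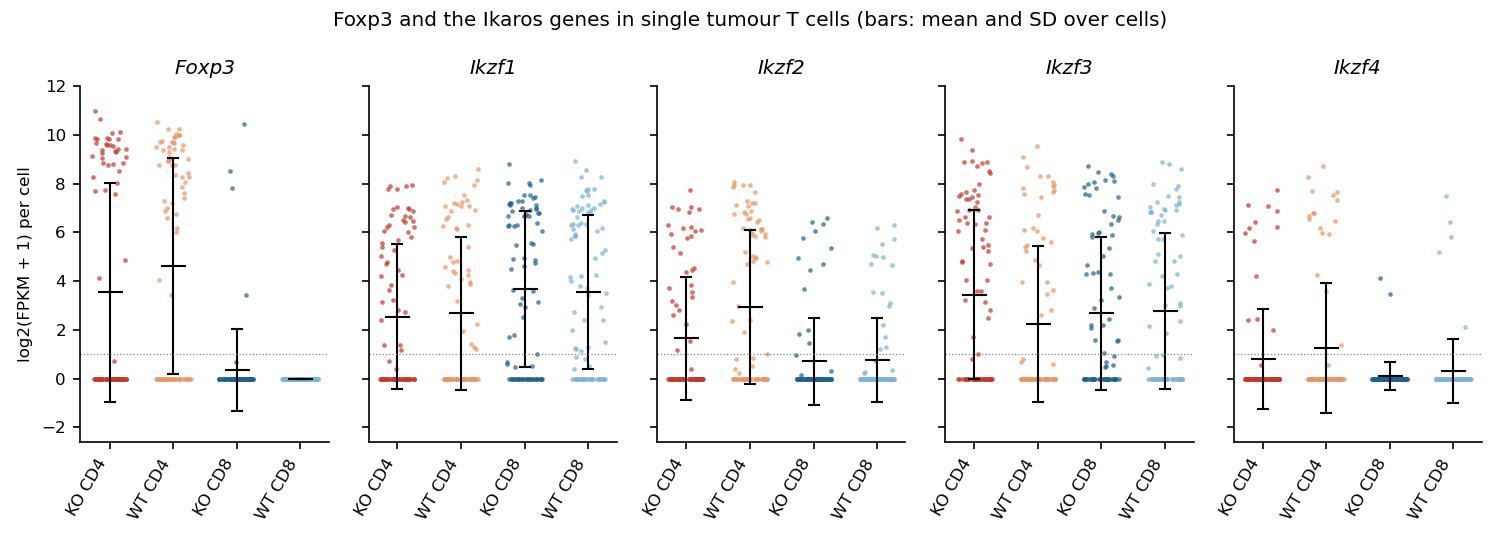
Each point is 1 cell. The vertical axis is log2(FPKM + 1), groups run along the horizontal axis, black bars give the mean and SD over cells, and the dotted line marks 1 FPKM. Foxp3 splits the CD4 cells into a group at 0 and a group near 9, with 4 of 86 KO CD8 cells and 0 of 90 WT CD8 cells above the line, while Ikzf1 and Ikzf3 are spread over all 4 groups.

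Between CD4 and CD8 cells, Foxp3 had one of the largest differences of all genes in both genotypes and Helios in WT cells, while Ikaros had a lower mean in CD4 cells. Genes that reached 1 FPKM in at least 20% of cells on either side of a comparison were called measured. The CD4 mean less the CD8 mean was 3.18 for Foxp3 in KO cells and 4.61 in WT cells, both on the log2(FPKM + 1) scale. Only 6 of 3956 measured genes had a higher value in KO cells and 1 of 4729 in WT cells. For Helios 15 genes were higher in WT cells, whereas in KO cells 90.6% of measured genes were lower. Foxp3 and Helios passed the 20% limit only through CD4 cells in both genotypes, so these ranks are descriptions. The difference was 0.93 in KO and 2.15 in WT cells for Helios, and 0.71 in KO and 0.97 in WT cells for Eos, which was under the 20% limit in the KO comparison. Of all measured genes, 8.24% were at least 1 higher in CD4 cells among KO cells and 1.54% among WT cells.

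The difference for Ikaros was -1.11 in KO cells, where 4.55% of measured genes were at least 1 lower in CD4 cells. It was -0.87 in WT cells, where 23.4% were at least 1 lower and the median gene stood at -0.53. With the number of detected genes equalised by weighting it was -0.996 in KO and -0.30 in WT cells. For Aiolos the sign differed, 0.77 in KO cells and -0.53 in WT cells, the last of which is the median of all genes. Pegasus (Ikzf5), a more distant member of the family, was found in 5.62% of KO CD4, 14.1% of WT CD4, 11.6% of KO CD8 and 11.1% of WT CD8 cells. Foxp1, a forkhead relative of Foxp3 that holds T cells quiescent, was lower in CD4 cells, with a difference of -1.07 in KO cells (47.2% against 68.6% of cells) and -1.41 in WT cells (27.1% against 60%).

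Between KO and WT cells of the CD4 sort, Foxp3 and Helios had lower means in KO cells and Aiolos had a higher one, while Ikaros differed little. The KO mean less the WT mean was -1.07 for Foxp3, -1.28 for Helios, 1.20 for Aiolos, -0.14 for Ikaros and -0.48 for Eos. Among 3864 measured genes, 0.983% were at least 1 lower in KO cells and 9.91% at least 1 higher, and the median was 0.23. Thus 17 genes had a lower difference than Helios and 29 a lower one than Foxp3, while Aiolos was among the 9.91% that were higher. After weighting that equalised the number of detected genes in the 2 pools, the differences were -1.45 for Foxp3, -1.54 for Helios and 0.98 for Aiolos. Without cells carrying markers of other cell types they were -0.72, -1.11 and 1.30 in the same order.

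In the CD8 sort none of the 5 genes differed by 1 between KO and WT cells. The KO mean less the WT mean was 0.36 for Foxp3, 0.11 for Ikaros, -0.06 for Helios, -0.10 for Aiolos and -0.21 for Eos. Across 4686 measured genes, 0.555% were at least 1 higher and 13.3% at least 1 lower in KO CD8 cells, with a median of -0.40. Ikaros and Aiolos, which were measured, lay above the median gene. Foxp3, Helios and Eos were under the 20% limit there. Their WT means were 0, 0.77 and 0.30, so none of these could have been 1 lower. For Foxp3 and Eos a value below the median gene was not possible either.

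Within the CD4 sort, Helios and Eos went with Foxp3 in both pools. Helios was found in 26 of 35 KO cells with Foxp3 (74.3%, 56.7% to 87.5%) and in 4 of 54 without it (7.41%, 2.06% to 17.9%). In the WT pool it was found in 38 of 46 cells with Foxp3 (82.6%, 68.6% to 92.2%) and in 4 of 39 without it (10.3%, 2.87% to 24.2%). The intervals do not overlap in either pool, and the difference of means was 3.27 in KO and 4.42 in WT cells.

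Eos was found in 11 of 35 KO cells with Foxp3 (31.4%, 16.9% to 49.3%) and in 2 of 54 without it (3.70%, 0.452% to 12.7%). Among WT cells it was found in 16 of 46 with Foxp3 (34.8%, 21.4% to 50.2%) and in 1 of 39 without it (2.56%, 0.0649% to 13.5%). Again the intervals do not overlap in either pool, with differences of means of 1.46 in KO and 1.99 in WT cells.

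For Aiolos and Ikaros the intervals of the 2 classes overlapped in both pools. Aiolos was found in 68.6% of KO cells with Foxp3 and 46.3% of those without it, and in 39.1% and 30.8% of the same classes in the WT pool. Its difference of means, 0.98 in KO and 0.78 in WT cells, was close to that of a typical gene. Ikaros was found in 37.1% of KO cells with Foxp3 and 53.7% of those without it, and in 45.7% and 51.3% of the same WT classes, with differences of -0.59 and -0.38. Of all measured genes, 5.8% in the KO and 15.3% in the WT pool had a lower difference than Ikaros. The median gene stood at 0.60 in KO and 0.42 in WT cells.

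Cells with Foxp3 had more genes detected, and most genes were higher in them. The median number of genes per cell was 2152 with Foxp3 and 1746.5 without it in the KO pool, and 1883.5 with and 1547 without it in the WT pool. Of 4849 measured genes in the KO pool, 30% were at least 1 higher and 2.35% at least 1 lower with Foxp3, with a median of 0.60. In the WT pool the shares were 23.9% and 4.81% of 3850 genes, with a median of 0.42. Only 56 genes in the KO pool and 13 in the WT pool had a higher difference than Helios.

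The association of Helios with Foxp3 held at both depths. Among cells with fewer than 2000 genes, Helios was found in 7 of 14 KO cells with Foxp3 and 2 of 38 without it, and in 22 of 27 WT cells with Foxp3 and 3 of 33 without it. Among cells with 2000 genes or more the counts were 19 of 21 against 2 of 16 in the KO pool and 16 of 19 against 1 of 6 in the WT pool. For Aiolos the direction in the KO pool turned with depth: the counts were 8 of 14 with Foxp3 against 12 of 38 without it in the shallower cells, and 16 of 21 against 13 of 16 in the deeper ones.

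**Figure D2:**
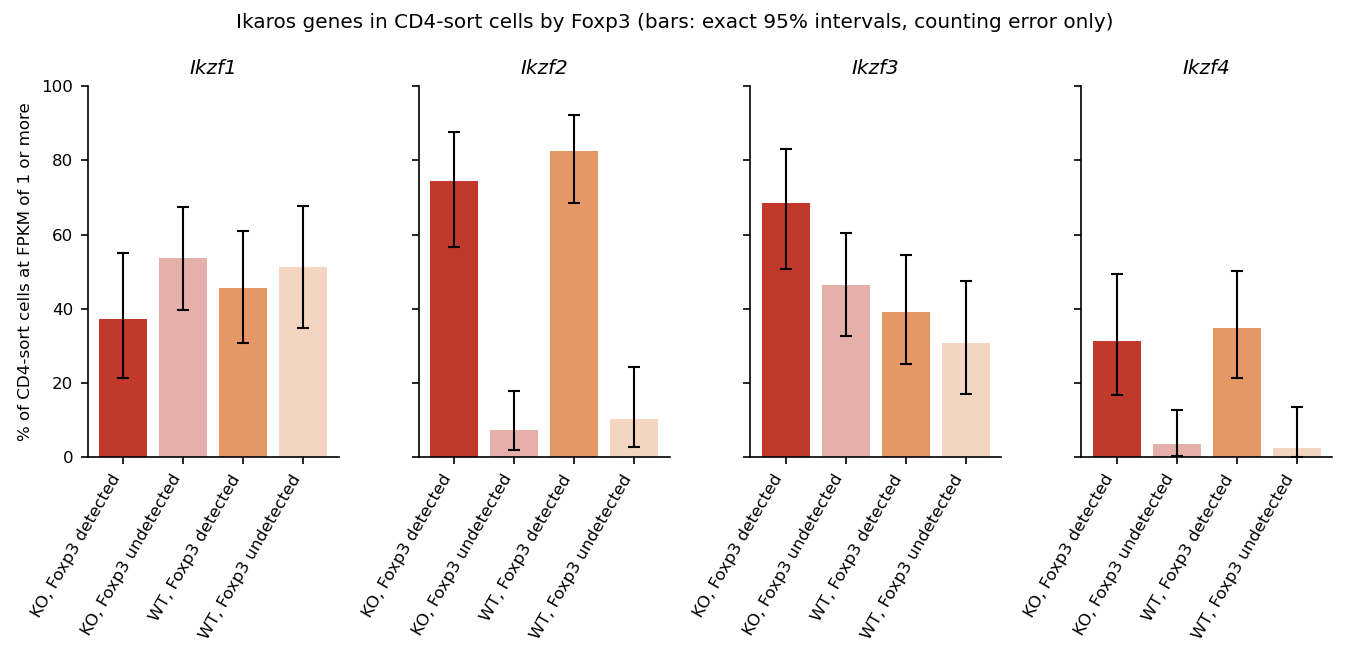
Bars give the share of CD4-sort cells with each Ikaros gene at 1 FPKM or above, for KO and WT pools with Foxp3 detected (full colour) or undetected (pale), and lines are exact 95% intervals. Ikzf2 stands at 74.3% and 82.6% with Foxp3 against 7.41% and 10.3% without it, Ikzf4 is lower but split the same way, and the bars of Ikzf1 and Ikzf3 overlap in their intervals.

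Read in the other direction, a CD4 cell with Helios nearly always had Foxp3. Foxp3 was found in 26 of 30 KO CD4 cells with Helios (86.7%, 69.3% to 96.2%) and 38 of 42 WT CD4 cells with Helios (90.5%, 77.4% to 97.3%). It was found in 11 of 13 KO and 16 of 17 WT CD4 cells with Eos. The shares were 48.98% and 60% of KO and WT CD4 cells with Aiolos, and 30.95% and 51.2% of those with Ikaros.

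Of the 8 CD4 cells with Helios and no Foxp3, 4 came from each pool. Helios stood at 8.08, 21.1, 34.9 and 65.95 FPKM in the KO cells and at 4.18, 26.7, 29.6 and 144.45 FPKM in the WT cells. Ctla4, which encodes an inhibitory receptor, stood at 10.4, 0, 473 and 2867 FPKM in the KO cells, in order of Helios. Tnfrsf18, which encodes GITR, stood at 508, 4315, 3128 and 1245 FPKM there. The WT cell with the most Helios had neither, and the other WT cells had Ctla4 at 68.5 FPKM or more. Tnfrsf18 was at 680, 1298 and 0.97 FPKM in those, in the same order. Neither transcript was particular to cells with Foxp3. Ctla4 was found in 40.7% of KO and 46.2% of WT CD4 cells without Foxp3, and Tnfrsf18 in 53.7% and 43.6%. Cd4 itself was at 0 in 2 of the 4 KO cells and in none of the WT cells.

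Cells with Foxp3 also carried more Ikaros genes at once. The mean number per cell follows from the shares of each of the 4 genes given above, and cells with Foxp3 had more genes detected. Of the 4, a mean of 2.11 ± 1.11 were detected in KO cells with Foxp3 and 1.11 ± 0.86 in those without it, against 2.02 ± 1.00 and 0.95 ± 0.69 in the same WT classes (SD over cells). All 4 were found together in 3 KO and 3 WT cells, each of them with Foxp3. The most frequent combination in KO cells with Foxp3 was Helios with Aiolos (8 of 35), followed by Helios, Aiolos and Ikaros (7 of 35). In WT cells with Foxp3 it was Helios alone (11 of 46). In the CD8 sort it was Ikaros with Aiolos, in 26.7% of KO and 25.6% of WT cells.

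Among cells that had Foxp3, its level did not run with that of Helios. Pearson's r of log2(FPKM + 1) was -0.16 over 35 KO cells and 0.08 over 46 WT cells, although it was 0.60 and 0.69 over all 89 KO and 85 WT CD4 cells. For Eos it was 0.26 and 0.20 within cells with Foxp3. These correlations share library and depth within a cell and are given as descriptions.

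**Figure D3:**
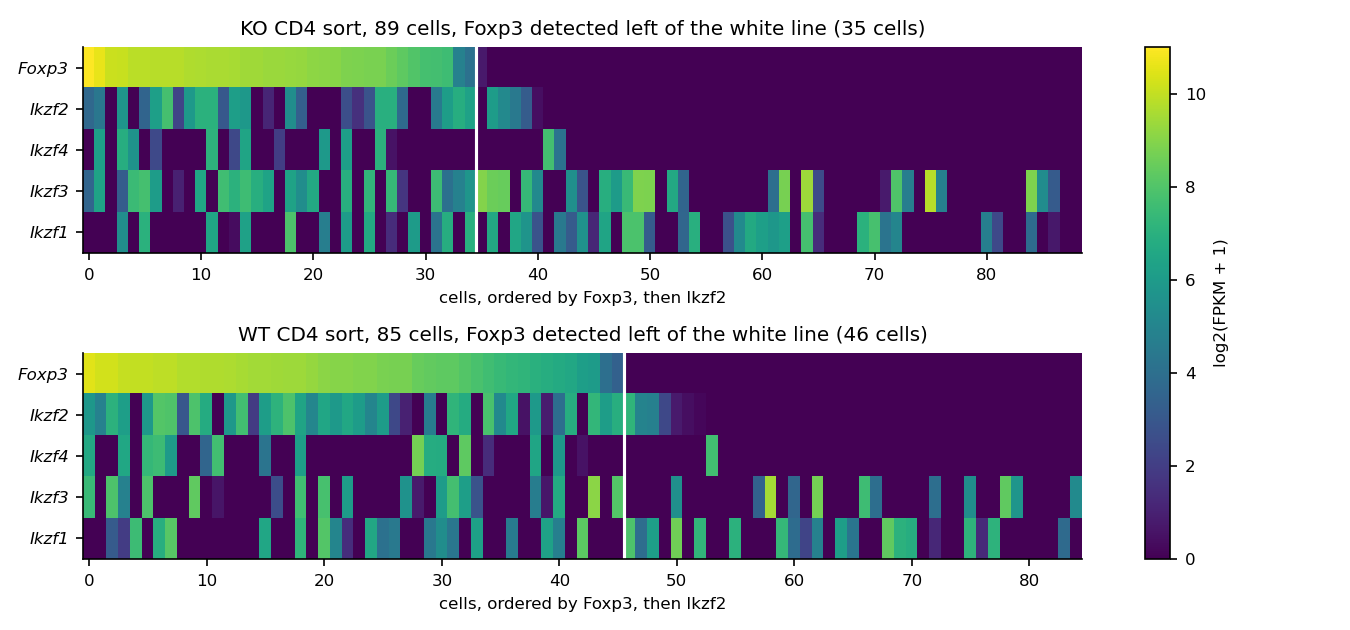
Each column is 1 CD4-sort cell, ordered by Foxp3 and then Ikzf2, with KO cells in the upper and WT cells in the lower panel, and colour gives log2(FPKM + 1). Ikzf2 fills most of the area left of the white line (26 of 35 KO and 38 of 46 WT cells) and little of the area right of it (4 of 54 and 4 of 39), while Ikzf3 and Ikzf1 are found on both sides.

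With the classes held apart, Helios was lower in KO than WT cells that had Foxp3, and Aiolos was higher in KO cells of both classes. Among cells with Foxp3, Helios was found in 74.3% of KO and 82.6% of WT cells, with a median of 47.2 FPKM in KO and 69.955 FPKM in WT cells that had it. The difference of means was -1.32, lower than in all but 50 of 4894 measured genes, of which 2.31% were at least 1 lower and 21.5% at least 1 higher. In cells without Foxp3 the Helios difference was -0.17, with 4 cells in each pool.

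The Helios gap was wider in shallow cells (means of 2.39 in KO and 5.00 in WT) than in deeper ones (4.45 and 4.88). Among cells with Foxp3 and fewer than 2000 genes, Helios was found in 7 of 14 KO and 22 of 27 WT cells, and among those with 2000 genes or more in 19 of 21 KO and 16 of 19 WT cells. In the deeper cells alone the difference was -0.43. With the number of detected genes equalised by weighting it was -1.46. Whether depth has a part in this difference was not tested beyond these values.

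Aiolos was found in 24 of 35 KO cells with Foxp3 (68.6%, 50.7% to 83.1%) and 18 of 46 WT cells with Foxp3 (39.1%, 25.1% to 54.6%), a difference of means of 1.44. Without Foxp3 it was found in 25 of 54 KO cells (46.3%, 32.6% to 60.4%) and 12 of 39 WT cells (30.8%, 17.02% to 47.6%), a difference of 1.24. There 13.5% of 3426 measured genes were at least 1 higher and 3.15% at least 1 lower in KO cells, with a median of 0.21. The intervals of KO and WT overlap in both classes. Where found, Aiolos had a median of 86.6 FPKM in KO and 138.6 FPKM in WT cells with Foxp3, and of 119.6 FPKM in KO and 42.3 FPKM in WT cells without it. Its level in positive KO cells was thus below that of WT cells in the first class and above it in the second.

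Foxp3 itself, in cells that had it, had a mean of 8.98 ± 1.37 in KO and 8.52 ± 1.57 in WT cells (SD over cells), a difference of 0.46, near the median gene at 0.42. The lower Foxp3 mean of the whole KO CD4 pool thus went with fewer positive cells. Eos differed by -0.51 and Ikaros by -0.32 in cells with Foxp3, and by 0.02 and -0.11 in cells without it.

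**Figure D4:**
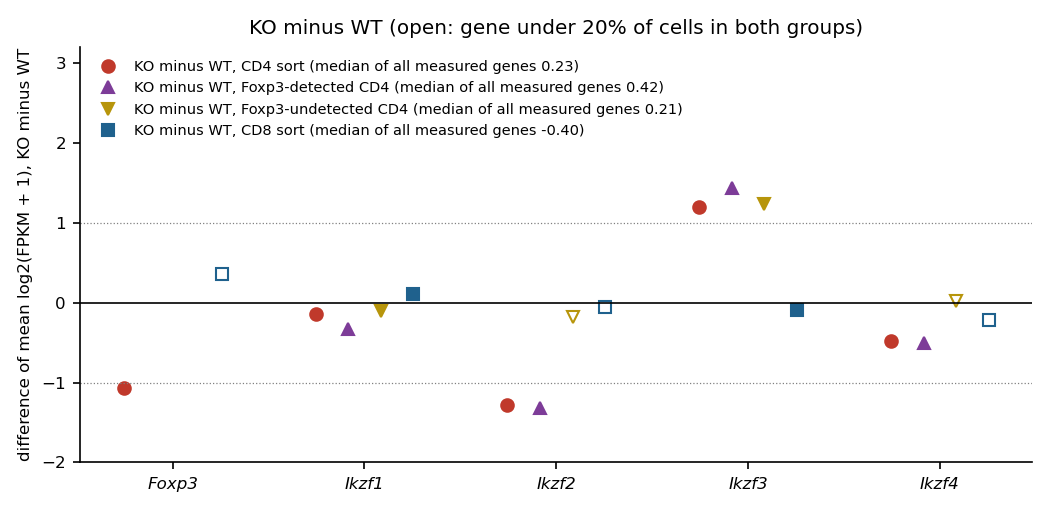
Points give the KO mean less the WT mean of log2(FPKM + 1) for each gene in 4 comparisons, open where the gene was in under 20% of cells of both groups, with dotted lines at 1 and -1. Ikzf3 lies above 1 in the CD4 sort and in both Foxp3 classes, Ikzf2 lies near -1.3 in the CD4 sort and in cells with Foxp3, and all CD8 points lie between -0.21 and 0.36.

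The 4 KO CD8 cells with Foxp3 held 9.83, 222.74, 360 and 1370 FPKM of it. All 4 lacked Cd4 and Eos, and each had Cd8a or Cd8b1. Helios stood at 93.97, 39.5 and 52.8 FPKM in the 3 with the most Foxp3, taken in the same order, and at 0 in the cell with 9.83 FPKM. These 3 cells also carried 2782, 2128 and 2997 FPKM of Ctla4 and 3374, 1316 and 2775 FPKM of Tnfrsf18, against 19.2 and 0 FPKM in the remaining one. They had 1297, 2369, 3196 and 1990 genes per cell in the order of their Foxp3 values, and the third of these was among the deepest KO CD8 cells, whose highest value was 3303.

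Lists of related genes were set beside the members, each chosen with earlier results of these data known. Of 22 regulatory T cell genes, 21 were measured in the KO pool and 18 of those were at least 1 higher in cells with Foxp3, with a median difference of 3.39. In the WT pool 20 were measured and 18 were at least 1 higher, with a median of 3.21. Of 20 measured in both pools, 17 were at least 1 higher in both, against 14.4% of the 3560 genes measured in both. Tnfrsf9, which encodes the co-stimulatory receptor 4-1BB, differed by 7.05 in KO and 7.21 in WT cells, Gzmb (granzyme B) by 7.36 and 6.14, Ctla4 by 7.32 and 5.12, and Klrg1, a lectin receptor of differentiated cells, by 6.00 and 3.21. The limit of 20% in either class favours genes that are high in 1 class.

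Genes of conventional CD4 cells lay on the other side. Of 15, 8 were measured in each pool, and 6 in KO and 5 in WT cells were at least 1 lower with Foxp3. Those lower in both pools were Tcf7, Cd40lg, Ccr7, Lef1 and S1pr1, and 1.40% of all genes measured in both pools were. Some of them, such as Tcf7 in KO cells, passed the 20% limit only through the class where they were high, so the count is a description. Over all 15 genes, with no such limit, the median was -0.62 in KO and -0.39 in WT cells. Tcf7, which encodes TCF-1 of naive and memory cells, was found in 2.86% of KO cells with Foxp3 and 48.1% without it, and in 15.2% and 58.97% of the same WT classes. Cd40lg, the ligand by which helper cells reach B cells, differed by -2.59 in KO and -1.67 in WT cells. Foxp1 was lower with Foxp3 as well, by -0.82 in KO and -1.36 in WT cells.

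Among genes of IL-2 signalling, on which regulatory T cells depend, 10 of 11 were measured, and 4 were at least 1 higher with Foxp3 in both pools, as were 14.4% of all genes measured in both. Cish, a feedback inhibitor that STAT5 induces, differed by 4.97 in KO and 3.17 in WT cells, Il2ra by 4.32 and 3.97, and Il2rb by 2.70 and 2.57. The kinase gene Jak3 was the other one. Socs3, an inhibitor that STAT3 induces, differed by -1.20 in KO and -3.55 in WT cells, where 47.8% of cells with Foxp3 and 82.1% of those without it had the transcript.

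Partners of the members moved less with Foxp3 than the regulatory list did. Of 20 chromatin partners of Ikaros proteins, 14 in the KO and 13 in the WT pool were measured, and 6 and 3 of these were at least 1 higher, beside 30% and 23.9% of all genes, with medians of 0.85 and 0.71 against 0.60 and 0.42 for all genes. The 1 of 13 genes higher in both pools, a smaller share than the 14.4% of all genes, was Smarca4, the BRG1 ATPase of SWI/SNF complexes, at 1.33 in KO and 1.08 in WT cells. Rbbp7, a histone-binding subunit of NuRD, differed by 2.33 in KO cells, but its WT means were 2.84 with and 2.80 without Foxp3. Hdac1, a deacetylase of NuRD, differed by 1.68 in WT cells. Its KO mean was 3.66 without Foxp3, close to the 3.70 of all KO CD4 cells. Of 28 partners and co-regulators of Foxp3, 16 were measured in both pools. Hif1a, Id2 and Prdm1 were at least 1 higher in both, a share of 18.8% that is near the 14.4% of all genes. Satb1, a chromatin organiser, was lower, at -1.92 in KO and -1.71 in WT cells. Batf and Gata3 differed by 3.18 and 2.51 in KO cells, against 0.28 and 0.07 in WT cells.

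**Figure D5:**
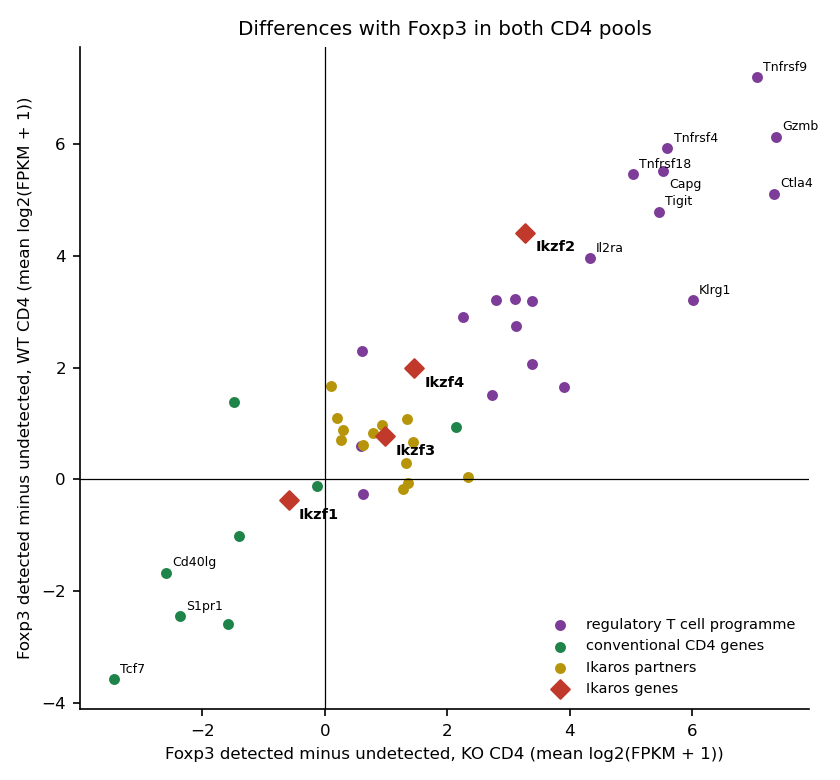
Each point is a measured gene, with its difference of mean log2(FPKM + 1) between CD4 cells with and without Foxp3 in the KO pool (horizontal) and the WT pool (vertical). Ikzf2, at 3.27 and 4.42, lies among the regulatory T cell genes in the upper right, Ikzf4 nearer the origin, Ikzf3 among the chromatin partners of Ikaros proteins, and Ikzf1 just below 0 in both pools, with Tcf7 at the lower left.

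Between KO and WT cells that had Foxp3, 10 of 21 measured regulatory genes were at least 1 higher in KO cells, beside 21.5% of all measured genes. The 1 that was lower, beside 2.31% of all genes, was Entpd1 at -1.48, named after its value was seen. Klrg1 differed by 3.45 (71.4% of KO and 43.5% of WT cells), Areg, the repair factor amphiregulin, by 2.35 (45.7% and 21.7%), and Il1rl1, the IL-33 receptor ST2, by 1.96 (42.9% and 10.9%). Il1rl1 counted as measured only through KO cells, where it was high. The list was also chosen with earlier results of these data known, so the count of 10 is a description. Among the Foxp3 partners, Gata3 differed by 2.90 (82.9% of KO and 45.7% of WT cells), Rora by 2.44 and Batf by 1.91. The list medians were 0.82 for regulatory genes and 0.64 for Foxp3 partners, against 0.42 for all measured genes. The KO cells of this class had a median of 2152 genes and the WT cells 1883.5, and the part of that gap in these differences was not tested.

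Ranked by the smaller gain in detected share over both pools, Helios came second of 2376 genes in its likeness to Foxp3. Il2ra came first, found in 82.9% of KO cells with Foxp3 and 11.1% without it, and in 82.6% and 5.13% of the same WT classes. After Helios followed Tnfrsf9, Gzmb, the chemokine receptor gene Ccr2, Arl5a, the syndecan gene Sdc4, the glutaredoxin gene Glrx, Fgl2, Neb, Tnfrsf4 (OX40) and Capg. Sdc4 was found in 54.3% of KO cells with Foxp3 and 1.85% without it, and in 50% and 0 of 39 WT cells, which allows up to 7.69%. Eos came at rank 90, Aiolos at 1137 and Ikaros at 2248. At the far end stood Tcf7, Ms4a4b, Arid5a, Gramd3, S1pr1, Sidt1, Satb1 and Pydc3.

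Ranked by the smaller r of the KO and WT CD4 pools, Foxp3 was the gene most like Helios of 2674 compared (0.60 in KO and 0.69 in WT cells), followed by Il2ra (0.61 in KO and 0.59 in WT cells), Tnfrsf9 (0.63 and 0.54) and Glrx (0.55 and 0.51). The genes most like Eos were Ube2k (0.50 and 0.42), Foxp3 (0.38 and 0.41), Tnfrsf9 and the integrin gene Itgav. For Ikaros they were Stat6 (0.30 and 0.34), Vps37b, Rpl37a and Rpsa, and for Aiolos Serpinb6b (0.31 and 0.31), Ptbp3, Atp5c1 and Tmem179b. The values for Ikaros and Aiolos are weak and were the highest of 2674, so they single out no gene.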

How the data were processed

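Single T cells in plates were profiled by Smart-seq2 with 21 cycles of amplification and Nextera XT tagmentation, per the labels' protocols. The table holds FPKM per gene as deposited by the authors. The submitters' processing notes name Bowtie, RSEM and mm10, and the labels' descriptions call the matrix TMM-normalized. Tool versions are not given in the sources used here. The table held 23366 rows and 375 columns, of which 371 were single cells. The other 4 columns were not used, and 4 rows with repeated symbols were left out.

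Cells with at least 1000 genes at 1 FPKM were kept. Levels are means of log2(FPKM + 1), a scale with a pseudocount of 1 that understates changes of low genes. A difference counts as past the limit at 1 (log2), for genes in at least 20% of cells of either group. Shares carry exact Clopper-Pearson 95% intervals, and 3 counts set the limit of a share of 0. Each group is 1 pool, so no p-value was computed. No doublet caller was used.

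Members and gene lists were chosen with earlier results of these data known. Named were the 5 members, up to 5 genes per list and comparison with the largest differences, the 12 most and 8 least like Foxp3, and the 4 most like each Ikaros gene. Alternatives changed the pseudocount, the detection limit, the cell and gene filters, and weighted cells by detected genes. The computation was tested on simulated data. Python 3.11.15, numpy 2.4.6, pandas 2.3.3, scipy 1.17.1 and matplotlib 3.10.9 were used.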

Additional observations from a re-analysis of the deposited data

Results flagged for a closer look

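For 3 of the 5 genes the KO mean less the WT mean had opposite signs in the CD4 and CD8 sorts. The CD4 difference less the CD8 difference was -1.43 for Foxp3, from -1.07 in CD4 and 0.36 in CD8 cells. It was 1.30 for Ikzf3, from 1.20 in CD4 and -0.10 in CD8 cells, and -0.25 for Ikzf1, from -0.14 and 0.11. The opposite signs did not hold throughout. The CD8 difference of Ikzf3 was 0.17 with the number of detected genes equalised, 0.36 without cells carrying markers of other types, 0.05 in cells whose lineage transcripts matched the sort and near 0 with all cells. Among cells with 2000 genes or more, Ikzf1 stood at -0.46 in CD4 and -0.24 in CD8 cells. With 1 pool per group, the difference between the sorts was not tested, and single cells of both genotypes overlap in each sort.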

How the results depend on the processing

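Of the recomputed differences past the limit of 1, 82 stayed within 1.5 times their value, 23 moved further and none of these turned round. A pseudocount of 10 accounted for 14 of these. It gave -0.61 for Foxp3, -0.71 for Ikzf2 and 0.65 for Ikzf3 between KO and WT CD4 cells. It gave 2.04 and 2.86 for Foxp3 between CD4 and CD8 cells of KO and WT, -0.62 for Ikzf1 in KO and 1.14 for Ikzf2 in WT. With against without Foxp3, it gave 1.47 in KO and 2.24 in WT for Ikzf2, and 0.68 and 1.02 for Ikzf4. Between KO and WT within classes it gave -0.85 for Ikzf2 and 0.67 for Ikzf3 with Foxp3, and 0.74 for Ikzf3 without it. A pseudocount of 0.1 gave 5.38 and 6.74 for Ikzf2 and 2.41 and 3.08 for Ikzf4 with against without Foxp3 in KO and WT, and 2.24 for Ikzf3 between KO and WT cells with Foxp3. Among cells with 2000 genes or more, Ikzf4 stood at 3.29 with against without Foxp3 in WT. Between KO and WT there, Ikzf2 stood at -0.43 and Ikzf3 at 0.83 with Foxp3, and Ikzf3 at 3.92 without it, where 6 WT cells remained. The gain in share of Ikzf3 with Foxp3 in KO cells became -5.06 points there, against 22.3 points in all kept cells. The pseudocounts rescale by construction. For the deeper cells the cause was not tested. Of the recomputed smaller results, shares and list medians, 74.7% stayed near their value or within counting error and 25.1% moved. The sign differed in 31 of them, mostly small KO minus WT differences of the CD8 sort or of cells without Foxp3. Among cells with 2000 genes or more, Ikzf3 with against without Foxp3 in KO cells stood at -0.95, and the share gap of Ikzf1 in WT cells at 18.4 points. With no filter on genes, the median of conventional CD4 genes with against without Foxp3 was -0.62 in KO and -0.39 in WT cells. No replicate could be left out, since each group is 1 pool. No paired analysis was possible because each group is 1 pool and no result comes from a test. Depth limits the shares, since a transcript of a few reads can be missed.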

Other observations

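Cells were also compared by Ikzf2 within classes, a split chosen after the values were seen. Among cells with Foxp3, Pdcd1, which encodes PD-1, was found in 17 of 26 KO cells with Ikzf2 and 1 of 9 without it, and in 19 of 38 WT cells with Ikzf2 and 1 of 8 without it. Ccr8, a chemokine receptor of tumour regulatory T cells, was found in 20 of 26 against 2 of 9 KO cells and 18 of 38 against 2 of 8 WT cells. Foxp3 itself had a mean of 8.95 with Ikzf2 and 9.09 without it in KO cells, and of 8.62 and 8.06 in WT cells. Both genes were picked from 28 compared, of which 22 had a higher and 4 a lower share with Ikzf2 in KO cells, and 17 a higher and 10 a lower one in WT cells. Among the lower ones were Folr4 (18 of 38 against 6 of 8) and Areg (6 of 38 against 4 of 8) in WT cells and Itgae (13 of 26 against 6 of 9) in KO cells. The median number of genes per cell was 2370 with Ikzf2 and 1773 without it in KO cells, and 1883.5 and 1857 in WT cells. The like counts over all genes are not given here, so these describe the 28 genes only. The part of depth in them was not tested.

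In the CD8 sort, Tigit, an inhibitory receptor gene, was found in 12 of 13 KO cells with Ikzf2 and 42 of 73 without it, and in 13 of 17 WT cells with Ikzf2 and 40 of 73 without it. Tnfrsf4 was found in 4 of 13 against 3 of 73 KO cells and 5 of 17 against 5 of 73 WT cells. These were picked from the same 28 genes, of which 21 had a higher and 5 a lower share with Ikzf2 in KO cells, and 19 and 8 in WT cells. Among the lower ones in WT cells were Icos (7 of 17 against 44 of 73) and Nt5e (1 of 17 against 14 of 73). Of the 13 KO cells with Ikzf2, 3 had Foxp3. CD8 cells with Ikzf2 had more genes, with medians of 2369 against 1905 in KO and 2699 against 2119 in WT cells, and the part of depth in these counts was not tested. Here too the like counts over all genes are not given.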
